A study of Mus musculus with 3 samples.

Results

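Plasma cells are the antibody-secreting end stage of the B cell lineage, and 10 genes of their program were followed in sorted B cells from the spleen of mice with allergic rhinitis. The genes were taken by name as the core transcription factors Prdm1, Irf4 and Xbp1, the surface molecules Sdc1, Tnfrsf17 and Slamf7, and the secretory genes Jchain, Mzb1, Derl3 and Fkbp11. All 10 were found among the 27088 genes of the table. The mice were female BALB/c, aged 6 weeks at the start and 13 weeks by their label. In the PBS group and in the SJMHE1 group they were sensitized to ovalbumin (OVA) with 10 μg OVA and 2 mg alum on days 0, 7 and 14. Both groups then received 100 μg OVA into the nose on days 21 to 27 and again on days 29 to 35, and were killed on day 36. On days 0, 14 and 28 the PBS group was injected under the skin with PBS, while the SJMHE1 group received 10 μg of SJMHE1, a peptide of the blood fluke Schistosoma japonicum, in incomplete Freund's adjuvant. The PBS injections held no adjuvant, so the peptide and the adjuvant cannot be told apart. B cells of the spleen were sorted by flow cytometry, the material of 3 mice per group was mixed, and total RNA depleted of ribosomal RNA was sequenced as 1 library per group. The difference between the 2 libraries has therefore no replicate check and no p-value. The library of the Control group was not analysed here.

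When a B cell becomes a plasma cell, IRF4 and Blimp-1, the product of Prdm1, switch off the factors that hold B cell identity, and XBP1 enlarges the endoplasmic reticulum for antibody export. In the spleen, short-lived plasmablasts arise outside the follicle and in germinal centres, and are a small part of all cells of the B lineage. In RNA of a mixed population, fewer cells of a type and less RNA per cell cannot be told apart.

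The table gave whole-number read counts and FPKM (fragments scaled by gene length and by library size) for each gene. The total count was 48267168 for PBS and 51280237 for SJMHE1, and 22837 and 22532 genes were above 0. To describe the sorted cells, 14 B cell markers were read in both libraries. Their log2 ratios ran from -0.11 for Cd74 to 0.68 for Cr2, so none was past 1 in either direction. Of the 14, 5 had a ratio below 0 and 9 above. Of all genes that passed the filter given below, 51.9% had a ratio below 0. The summed FPKM of these markers was 8487 in the PBS and 8306 in the SJMHE1 library. Cd74 was the most abundant of them, at 4642.73 and 4297.17. Markers of other cell types were present at lower levels and differed between the libraries, and their values are given with the last results.

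The expression of the members covered a wide range. In the PBS library, FPKM was 387.75 for Jchain, 136.65 for Irf4, 94.32 for Mzb1, 25.54 for Xbp1, 9.30 for Derl3, 8.81 for Slamf7, 5.0 for Sdc1, 2.31 for Prdm1, 1.93 for Tnfrsf17 and 0.93 for Fkbp11. In the SJMHE1 library, FPKM was 313.01 for Jchain, 105.90 for Irf4, 89.33 for Mzb1, 33.83 for Xbp1, 8.69 for Derl3, 7.31 for Slamf7, 3.66 for Sdc1, 2.19 for Prdm1, 0.87 for Tnfrsf17 and 0.58 for Fkbp11. The order of the levels was the same in both libraries, and the highest member exceeded the lowest 417-fold in the PBS and 540-fold in the SJMHE1 library. For each FPKM, an exact Poisson interval at the 95% level was taken from its count, and this interval covers counting error only. The intervals of neighbours in the order overlapped for Derl3 and Slamf7 and for Prdm1 and Tnfrsf17 in the PBS library, and for Tnfrsf17 and Fkbp11 in the SJMHE1 library. Jchain ranked 97 and 121 of all genes by FPKM, whereas Fkbp11 ranked 12155 and 13265. Summed over the members, FPKM was 672.54 in the PBS and 565.37 in the SJMHE1 library.

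**Figure D1:**
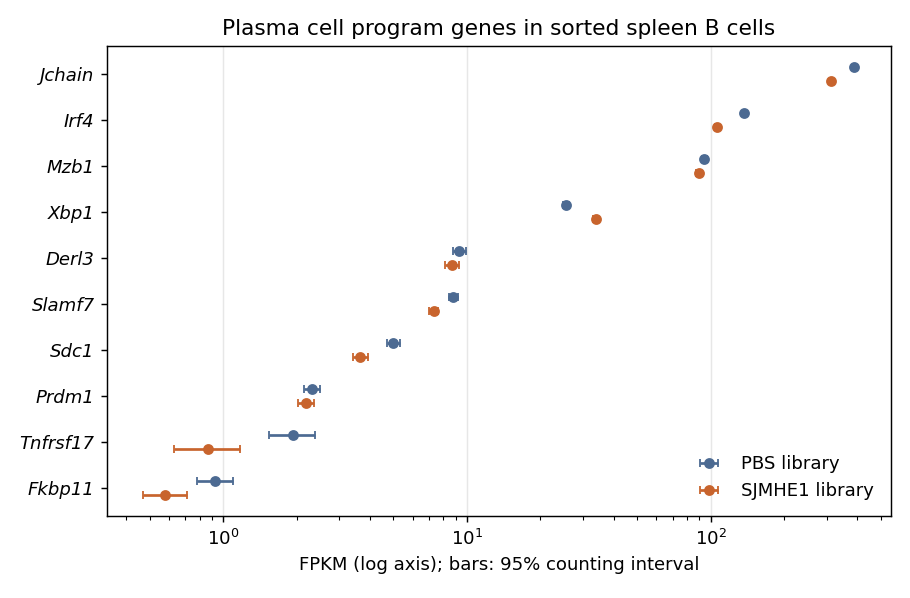
FPKM of the 10 plasma cell program genes on a log axis, with 1 point per library and bars for the 95% counting interval. Jchain at 387.75 and 313.01 is the highest member and Fkbp11 at 0.93 and 0.58 the lowest, and Xbp1 is the member whose SJMHE1 point lies to the right of its PBS point.

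Of the 10 members, 9 were lower in the SJMHE1 library and 1, Xbp1, was higher. Libraries were compared by the log2 of SJMHE1 FPKM over PBS FPKM, for genes that reached an FPKM of 1 in either library and had no FPKM of 0. A total of 12433 genes passed this filter, among them 9 members, while Fkbp11 stayed under it. Of the 9 members compared, 8 had a ratio below 0, against 51.9% of all genes compared. When each library was rescaled to an equal sum, the log2 ratio moved up by 0.083 for every gene. Of the 9 members, 6 were then below 0 and 3 above. The share of 51.9% does not apply to this scaling, for which the share of all genes was not computed. Tnfrsf17 was the 1 member below a log2 ratio of -1, where 3.57% of all genes lay. It passed the filter only through the PBS library, where it was higher, with FPKM of 1.93 and 0.87. A minimum of 1 in both libraries would leave it out. None of the members was above 1, where 2.43% of all genes lay. The counting interval of the ratio lay below 0 for 6 of the 9 members, against 34.5% of all genes, and above 0 for 1 member, against 31.0% of all genes. The members' median log2 ratio was -0.27, against -0.013 over all genes compared, whose middle 50% lay between -0.21 and 0.17. Apart from Tnfrsf17, every member compared lay inside the range from -0.82 to 0.64 that held the middle 90% of all genes.

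**Figure D2:**
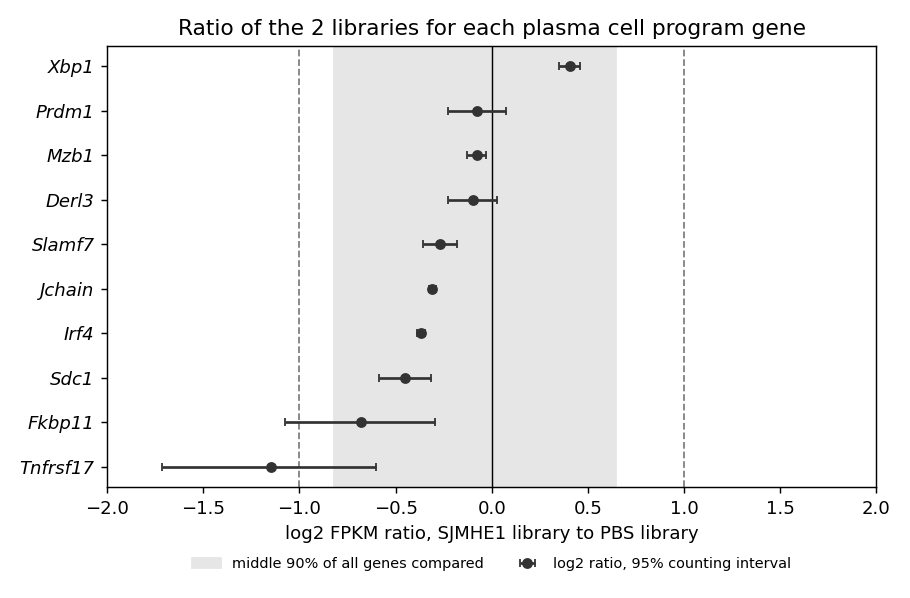
Log2 FPKM ratio of the SJMHE1 library to the PBS library for each member, with the 95% counting interval as bars, the threshold of 1 in either direction as dashed lines and the middle 90% of all genes compared as the grey band. Tnfrsf17 at -1.15 lies past the threshold, Xbp1 at 0.41 is the member above 0, and the intervals of Derl3 and Prdm1 include 0.

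The 3 transcription factors did not share a direction. Irf4, whose product IRF4 drives both class switching and plasma cell differentiation in a manner that depends on its amount, had 36778 counts in the PBS and 30171 in the SJMHE1 library. The log2 ratio was -0.37, with a counting interval from -0.39 to -0.35, a level 22.5% lower. Xbp1, the factor of the unfolded protein response that expands the secretory apparatus, had 4556 counts and 6385 counts. Its log2 ratio of 0.41 (counting interval 0.35 to 0.46) corresponded to a level 32.5% higher, and 90.3% of all genes compared had a lower ratio. Counts per gene cannot separate the spliced from the unspliced form of Xbp1 mRNA, of which the spliced form encodes the active factor. Prdm1, the gene of the repressor Blimp-1, had 709 and 711 counts. Its log2 ratio was -0.077, with an interval from -0.23 to 0.075, so that no difference was detectable at this depth, and with equal sums its ratio was 0.0060. Irf4 (ENSMUSG00000021356) lies on the plus strand at chr13:30749226-30766976 and Xbp1 (ENSMUSG00000020484) on the plus strand at chr11:5520659-5525893. Prdm1 (ENSMUSG00000038151) lies on the minus strand at chr10:44437177-44528501. These positions are of GRCm38, and the span of each of the 10 members equals that in GENCODE M21. The table gives 1 value per gene, over 3 annotated transcripts for Irf4 and 4 each for Xbp1 and Prdm1.

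All 3 surface molecules were lower in the SJMHE1 library. Tnfrsf17, which encodes BCMA, the receptor for BAFF and APRIL that supports plasma cell survival, had 87 counts in the PBS and 42 in the SJMHE1 library. Its log2 ratio was -1.15, with an interval from -1.72 to -0.60, a level 54.9% lower, and 2.86% of all genes compared had a lower ratio. The interval was below 0 but was not wholly past the threshold, and with a pseudocount of 1 the log2 ratio was -0.65. Sdc1, the gene of the proteoglycan CD138 by which plasma cells are stained, had 1047 and 812 counts. Its level was 26.8% lower, a log2 ratio of -0.45 (interval from -0.58 to -0.32). Slamf7, a receptor of the SLAM family on plasma cells and also on NK cells, had 2216 and 1947 counts. Its level was 17.0% lower, a log2 ratio of -0.27 (interval from -0.36 to -0.18). Tnfrsf17 (ENSMUSG00000022496, 1 transcript) lies on the plus strand at chr16:11313812-11320074. Sdc1 (ENSMUSG00000020592, 5 transcripts) lies on the plus strand at chr12:8771323-8793715. Slamf7 (ENSMUSG00000038179, 5 transcripts) lies on the minus strand at chr1:171632403-171653035. An antisense gene that overlaps Slamf7, Gm37787, held 9 and 13 counts, and whether the counting used strand is not given in the sources used here.

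The secretory genes Jchain and Mzb1 were abundant, and both were lower in the SJMHE1 library by small amounts. Jchain encodes the joining chain of polymeric IgM and IgA and had 53570 and 45776 counts. Its level was 19.3% lower, a log2 ratio of -0.31 (interval from -0.33 to -0.29). Mzb1, a cochaperone of the endoplasmic reticulum in marginal zone B cells and plasma cells, had 6292 and 6308 counts. Its log2 ratio was -0.078, with an interval from -0.13 to -0.028, and it became 0.0046 with equal sums. Jchain (ENSMUSG00000067149, 2 transcripts) lies on the minus strand at chr5:88519809-88527891. Mzb1 (ENSMUSG00000024353, 3 transcripts) lies on the minus strand at chr18:35647267-35649367. Of the windows of 50 bases in the Mzb1 transcript, 75.7% also occur in an overlapping gene model on the same strand (ENSMUSG00000117874), so the authors' counting could have split or dropped its reads and its level is uncertain.

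The secretory genes Derl3 and Fkbp11 stood at lower levels than Jchain and Mzb1. Derl3, a component of the degradation of misfolded proteins at the endoplasmic reticulum, had 1019 and 1010 counts. Its log2 ratio was -0.098, with an interval from -0.22 to 0.029, so that no difference was detectable at this depth. Fkbp11, a prolyl isomerase of the secretory pathway, had 140 counts in the PBS and 93 in the SJMHE1 library. Its FPKM was under 1 in both libraries, so it is counted among the 10 members but not among the 9 that passed the filter. The log2 ratio was -0.68, with an interval from -1.08 to -0.29. Derl3 (ENSMUSG00000009092, 8 transcripts) lies on the plus strand at chr10:75893413-75895941. Fkbp11 (ENSMUSG00000003355, 3 transcripts) lies on the minus strand at chr15:98724366-98728198.

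The promoters of Derl3 and Tnfrsf17 are shown because, among 7 short motifs searched, they hold those tied to the unfolded protein response and to interferon regulatory factors. RefSeq windows of 300 bases, from 250 before to 50 after the gene start, were given for 9 members, 10 windows in all, and the motifs were searched on both strands. The 250 bases before the start are printed 5′ to 3′ on the plus strand of GRCm38.p6, with the matched motif in capitals, at chr10:75893148-75893397 for Derl3 and at chr16:11313559-11313808 for Tnfrsf17.
Derl3: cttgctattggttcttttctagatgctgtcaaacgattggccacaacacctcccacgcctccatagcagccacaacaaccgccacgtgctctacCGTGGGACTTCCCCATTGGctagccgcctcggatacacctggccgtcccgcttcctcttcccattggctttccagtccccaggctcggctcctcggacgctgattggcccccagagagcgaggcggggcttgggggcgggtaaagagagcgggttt
Tnfrsf17: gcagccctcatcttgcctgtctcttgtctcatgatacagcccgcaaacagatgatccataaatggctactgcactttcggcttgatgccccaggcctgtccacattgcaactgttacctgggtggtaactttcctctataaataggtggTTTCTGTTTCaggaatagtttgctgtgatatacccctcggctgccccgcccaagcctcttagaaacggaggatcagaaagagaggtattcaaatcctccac
The capitals in Derl3 mark the endoplasmic reticulum stress response element ERSE, letters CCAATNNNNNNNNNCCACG, read on the reverse strand from position -156 to -138. This motif was found in 0.119% of 32851 windows of all genes. The capitals in Tnfrsf17 mark the interferon-stimulated response element ISRE, letters GAAANNGAAA, read on the reverse strand from -101 to -92 and found in 3.44% of all windows. The TATA box, TATAAA, was found in Irf4 and Tnfrsf17 and in 13.6% of all windows. The other motifs searched were ERSE-II (ATTGGNCCACG, in 0.0365% of all windows), UPRE (TGACGTGG, 0.676%), the composite element of ETS and IRF factors EICE (GGAANNGAAA, 2.72%) and the octamer (ATGCAAAT, 1.74%). None of these was matched in a window of the members. The motifs were chosen after the sequences had been viewed, ISRE and EICE share letters, and a match is a description and not a site.

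Factors of the B cell program that oppose plasma cell differentiation shared no direction. Of 11 such factors, all were compared, 6 had a ratio below 0 and 5 above, and none was past a log2 ratio of 1. Over all genes compared, 51.9% were below 0, 3.57% below -1 and 2.43% above 1. The counting interval lay below 0 for 6 factors and above 0 for 5, against 34.5% and 31.0% of all genes. Their median was -0.053, and 0.030 with equal sums. Bach2, a repressor of Prdm1, was lower in the SJMHE1 library, with FPKM of 18.87 and 15.68 and a log2 ratio of -0.27. Foxo1 and Ebf1, which maintain B cell identity, both had a log2 ratio of -0.14. Bcl6, the germinal centre factor that represses Prdm1, was higher, with FPKM of 11.06 and 13.49 and a log2 ratio of 0.29. Id3, an inhibitor of E proteins, had a log2 ratio of 0.24, and Spib, an ETS factor, had one of 0.17. Pax5, the main keeper of B cell identity, had a log2 ratio of 0.016, with FPKM of 127.27 and 128.70.

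Genes of the secretory pathway and known targets of XBP1 lay on both sides of a log2 ratio of 0. Of 35 such genes, all compared, 22 had a ratio above 0 and 13 below, with a median of 0.10 and none past a log2 ratio of 1. Of all genes compared, 51.9% had a ratio below 0, 3.57% were below -1 and 2.43% above 1. The summed FPKM of the 35 genes was 1376 in the PBS and 1613 in the SJMHE1 library. Hsp90b1 and Canx, chaperones of the endoplasmic reticulum, had the highest ratios. Hsp90b1 had FPKM of 133.42 and 198.06 and a log2 ratio of 0.57. Canx had FPKM of 44.16 and 64.03 and a log2 ratio of 0.54. Hyou1, a further chaperone, had a log2 ratio of 0.47. At the other end, Ern1, whose product IRE1α splices Xbp1 mRNA, had FPKM of 2.05 and 1.58 and a log2 ratio of -0.38. Sec24d, a coat protein of transport vesicles, had a log2 ratio of -0.34, and Derl1, a relative of Derl3, had one of -0.28.

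In the larger set of genes that the table annotates to KEGG protein processing in the endoplasmic reticulum, 7 of 145 genes compared were above a log2 ratio of 1 and 1 was below -1, with a median of 0.029. Of all genes compared, 2.43% were above 1 and 3.57% below -1. The 8 genes of the set past the threshold were named after their values had been seen. The 7 are heat shock proteins and their cofactors, which act mainly in the cytosol. They were Hspa1b at 3.60, Hspa1a at 3.39, Dnajb1 at 2.34, Hsph1 at 2.27, Hspa1l at 1.52, Dnaja1 at 1.5 and Hspa8 at 1.02. Hspa1a and Hspa1b are close copies of each other, so the level of each on its own is uncertain. Ddit3, the gene of the stress factor CHOP, was lower, with FPKM of 28.22 and 13.96 and a log2 ratio of -1.02.

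Other genes of antibody-secreting cells were divided. Of 19 genes compared, 8 had a ratio below 0, 10 above and 1 exactly 0, with a median of 0.0086. A log2 ratio below -1 was found for 2 genes of the list, against 3.57% of all genes compared. Among these 2, Cd28, a costimulatory receptor of long-lived plasma cells and of T cells, had 556 and 103 counts. Its log2 ratio was -2.51, with an interval from -2.83 to -2.20. Cd28 is also among the T cell markers below. Eaf2, an elongation cofactor, had a log2 ratio of -0.88, and the tetraspanin Cd9 had one of -0.35. Cd38, an ectoenzyme of the B cell surface, was highest in ratio, with FPKM of 30.19 and 43.41 and a log2 ratio of 0.52. Ikzf3 and Pou2af1, nuclear factors of the B lineage, had log2 ratios of 0.25 and 0.23.

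The constant genes of switched heavy chains were lower in the SJMHE1 library, while those of IgM and IgD were not. Of 12 immunoglobulin constant genes compared, 10 had a ratio below 0 and 3 were below -1, with a median of -0.19. Of all genes compared, 51.9% were below 0 and 3.57% below -1. Ighe, the heavy chain of IgE, had 447 counts in the PBS and 142 in the SJMHE1 library, and its log2 ratio of -1.74 had an interval from -2.02 to -1.46. Ighg1, the heavy chain of IgG1, had FPKM of 136.13 and 45.71 and a log2 ratio of -1.57 (counting interval -1.61 to -1.53). Igha, the heavy chain of IgA, had FPKM of 167.74 and 80.62 and a log2 ratio of -1.06 (counting interval -1.09 to -1.03). With equal sums Igha was no longer past the threshold. The other switched heavy chain genes of the table had log2 ratios of -0.86 for Ighg2c, -0.23 for Ighg2b and -0.13 for Ighg3. Whether the heavy chain genes of the reference, Ighg2c among them, match those of BALB/c mice was not checked. Reads assigned to Ighg2c may therefore come from another gene. Summed over these 6 switched heavy chain genes, FPKM was 383.12 in the PBS and 190.38 in the SJMHE1 library, a ratio of 0.497. Ighm and Ighd, the chains of unswitched B cells, had log2 ratios of 0.058 and 0.11, and the light chain gene Igkc had one of -0.069. The constant genes of the lambda light chains were also below 0, with log2 ratios of -0.45 for Iglc1, at FPKM of 324.36 and 238.14, -0.15 for Iglc2 and -0.14 for Iglc3. For Ighm, Ighd and Igkc together the ratio of the summed FPKM was 0.989. The constant genes resemble each other, and the share of windows of 50 bases found in another gene was 6.01% for Ighg2c, 4.33% for Ighg2b, 1.65% for Ighg3, 0.411% for Ighg1, 7.72% for Iglc2 and 10.7% for Iglc3.

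**Figure D3:**
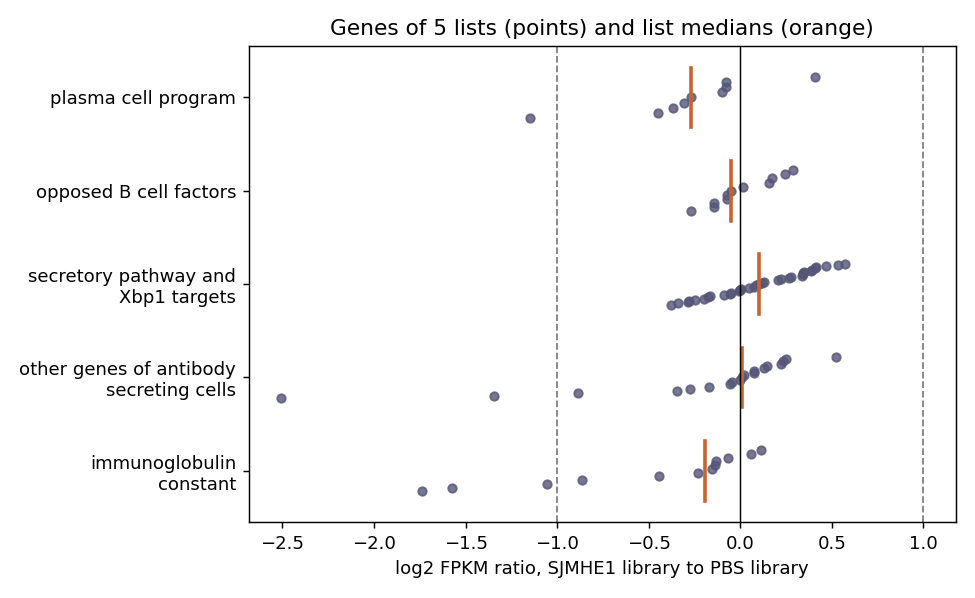
Log2 FPKM ratio, SJMHE1 to PBS, of every gene compared in the plasma cell program and in 4 further lists, with the median of each list in orange and the threshold of 1 as dashed lines. The members lie mostly between -0.45 and 0, the secretory list has a median of 0.10, and the genes farthest to the left are Cd28 at -2.51, Ighe at -1.74 and Ighg1 at -1.57.

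Markers of other cell types also differed between the libraries. The counts below stand beside 3.57% of all genes compared below a log2 ratio of -1 and 2.43% above 1. The summed FPKM of 15 T cell markers was 91.29 in the PBS and 42.47 in the SJMHE1 library, all 15 had a ratio below 0, 13 were below -1, and their most abundant gene, Lck, stood at 27.92 and 25.19. For the NK cell markers the sum was 16.48 and 7.20, 4 of 5 compared were below -1, and Gzma was the most abundant at 6.57 and 2.96. For 15 macrophage and monocyte markers the sum was 132.07 and 76.72, and Lyz2 was the most abundant at 88.79 and 37.40. Of these markers 12 were compared, and 6 had a ratio below 0 and 6 above. Among them 1 gene was below -1 and 2 were above 1. Dendritic cell markers summed to 23.75 and 17.70, and 2 of 4 compared were below -1. Their most abundant gene, Bst2, stood at 14.65 and 13.29, and Batf3 was at 0 in the SJMHE1 library with 28 counts in the PBS library. The sum of 10 neutrophil markers was higher in the SJMHE1 library, at 453.12 and 532.99. However, 6 of the 10 had a ratio below 0 and 4 above, with a median of -0.12 and none past 1. The sum of 9 erythroid markers was also higher, at 154.30 and 203.18, and all 9 had a ratio above 0, with 1 above 1. S100a9 led the neutrophil markers at 196.02 and 266.48, and S100a8 stood at 73.55 and 114.96. Hbb-bs led the erythroid markers at 49.24 and 62.25. Batf3 was the one gene of these marker lists at 0 in either library. Irf4, Prdm1, Xbp1 and Slamf7 are also transcribed in T cells, NK cells or dendritic cells, and the part of these cells in the members' ratios was not tested.

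**Figure D4:**
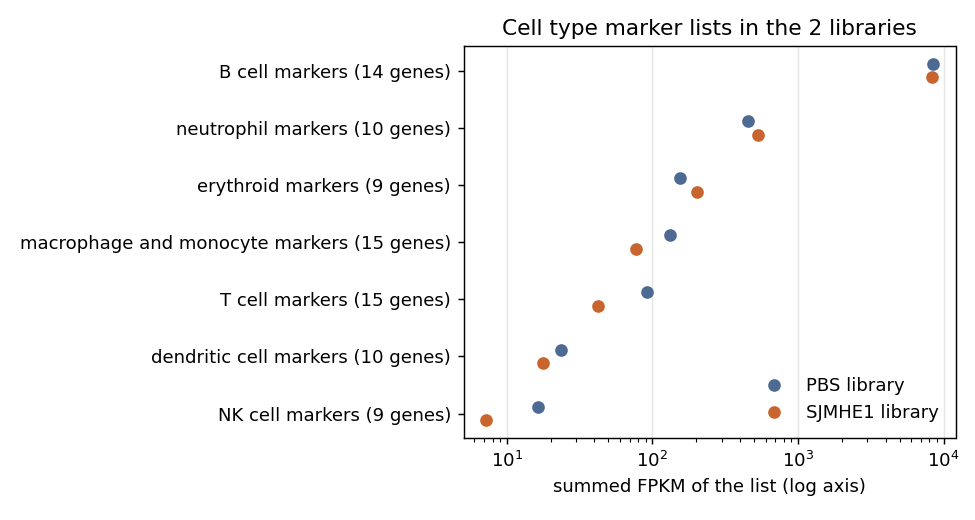
Summed FPKM of each cell type marker list on a log axis, with 1 point per library. B cell markers stand at 8487 and 8306, T cell markers at 91.29 and 42.47, and NK cell markers at 16.48 and 7.20. The sums of neutrophil and erythroid markers are higher in the SJMHE1 library, although 6 of 10 neutrophil markers have a ratio below 0.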

How the data were processed

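RNA of sorted spleen B cells was compared between 1 PBS library and 1 SJMHE1 library, each a mixture from 3 mice. For each gene the authors deposited raw counts of reads, which are whole numbers, and FPKM, in which gene length and library size are scaled out. The submitters' processing notes name bcl2fastq 2.0, HISAT2, StringTie, DESeq2, limma and mm10 without roles, while annotation, strand use and counting tool are not given in the sources used here. Of the 27088 gene identifiers, 27025 were found in GENCODE M21. The names of 2 further value columns matched no sample and were not used, so no comparison with the control group was made.

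Log2 FPKM ratios were taken without a pseudocount for genes that reached an FPKM of 1 in either library and had no FPKM of 0, and the threshold was 1 in either direction. With 1 library per group, edgeR's quasi-likelihood test could not be fitted, and fold changes describe these libraries. Intervals at 95% were taken from the counts, as exact Poisson intervals for FPKM values and exact Clopper-Pearson intervals for ratios. Both cover counting error only and leave out differences between mice. At these depths a count of 0 allows 3 counts, or 0.0622 and 0.0585 counts per 1000000. The members, gene lists and settings were chosen with earlier results of these data known. Beside all members, up to 3 genes with the highest and 3 with the lowest ratio of each list were named, with every listed gene past the threshold, the immunoglobulin heavy chain genes, and the most abundant and absent genes of the marker lists. The lambda light chain genes were named after their values had been seen. The values of some listed genes are not reported here. Alternatives were pseudocounts of 0.1 and 1, FPKM rescaled to equal sums, ratios of counts per 1000000, TMM scaling, centring on the median, a threshold of 0.5 and other filters. The calculations were tested on simulated data. TMM factors came from edgeR 4.0.16 in R 4.3.3, and all else from scipy 1.17.1, pandas 2.3.3, numpy 2.4.6 and matplotlib 3.10.9 in Python 3.11.15.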

Additional observations from a re-analysis of the deposited data

How the results depend on the processing

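No paired analysis was possible because the PBS and SJMHE1 groups hold 1 library each, and no test was run. For the same reason no library could be left out. The alternatives planned for comparisons with the control group were not run. With a pseudocount of 1, 0 members were past the threshold in place of 1, since the log2 ratio of Tnfrsf17 was then -0.65. With the FPKM minimum of 1 applied to both libraries, Tnfrsf17, at 1.93 and 0.87, falls outside the comparison. Under that filter 151 of 11366 genes were past the threshold lower and 101 higher. Over the alternatives of scaling and pseudocount, the log2 ratio ranged from -0.31 to -0.23 for Jchain, from -0.37 to -0.28 for Irf4, from -0.45 to -0.36 for Sdc1, from -0.27 to -0.19 for Slamf7, from -0.10 to -0.015 for Derl3 and from 0.39 to 0.49 for Xbp1. The range was from -1.14 to -0.65 for Tnfrsf17 and from -0.68 to -0.29 for Fkbp11, which was under the filter. Prdm1 and Mzb1 ranged across 0, up to 0.0060 and 0.0046, both with FPKM rescaled to equal sums. The members' median stayed between -0.29, without the filter and with Fkbp11 included, and -0.19. Over all genes, 746 were past the threshold, 444 lower and 302 higher, and 731 with equal sums, 389 lower and 342 higher. Without the filter the number was 3385, with the FPKM minimum of 1 applied to both libraries 252, with a pseudocount of 1 246, and with a threshold of 0.5 2126. Of 77 listed genes compared, 5 were past the threshold, all of them lower, and 4 with equal sums, when Igha was not. Over all 12433 genes compared, 3.57% were past the threshold lower and 2.43% higher. Prdm1, Derl3, Tnfrsf17 and Fkbp11 rest on at most 1019 counts per library, so that the counts limit how small a difference can be seen.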
